A study of Mus musculus with 30 samples.

Results

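Cytosolic ribosomal protein genes, the genes for the protein components of the ribosomes that translate nuclear-encoded messages, were followed in mouse hearts labelled as lacking the REV-ERB receptors in cardiomyocytes. Members were chosen by symbol alone. A row was taken where its name began with Rpl or Rps followed by a digit or p, or was Rpsa. S6 kinases (Rps6k), names with -ps, Rpl3 and its muscle paralog Rpl3l were left out. This gave 82 of the 13575 genes of the deposited table. By their known roles 31 encode proteins of the small (40S) subunit and 42 encode proteins of the large (60S) subunit. A further 3 are the stalk genes Rplp0, Rplp1 and Rplp2. Another 5 are paralogs (Rpl22l1, Rps27l, Rpl36al, Rpl7l1 and Rps4y2), and Rps19bp1 is no ribosomal protein but a protein that binds RPS19. All 82 had values above 0 in every library and passed the filter on low values. The proteins of the mature ribosome that the naming rule does not reach include Rpl3, Fau (S30) and Gnb2l1 (RACK1).

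RNA was sequenced from hearts of 2-month-old mice, trimmed of their atria and collected at ZT10 (hour 10 of the zeitgeber day). The libraries fall into 3 labelled CM-RevDKO, in which cardiomyocytes are to lack both REV-ERBα and REV-ERBβ, and 3 labelled as floxed control. By the labels both groups carry floxed alleles of Nr1d1 and Nr1d2. The labels of the ChIP samples in the series name an aMHC-Cre transgene, driven by the promoter of a cardiac myosin heavy chain, present or absent on that floxed background. An effect of Cre itself and an effect of losing the receptors cannot be told apart here. Other cells of the heart keep both genes by design, and sex is not given for the RNA samples. The labels do not say whether replicates were separate animals, so the p-values speak only of the spread among these 6 libraries, which may be technical.

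A ribosome carries 1 copy of nearly every one of its proteins, with several copies of the P1 and P2 stalk proteins, and cells make these proteins in step with each other and with ribosomal RNA. The messages of vertebrate ribosomal proteins begin with a C followed by a run of pyrimidines, the 5′ terminal oligopyrimidine (5′ TOP) tract, through which the kinase complex mTORC1 and the RNA-binding protein LARP1 control their translation and stability. In the heart, ribosome content is known to follow cardiomyocyte growth.

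The start regions of members with the largest log2 fold changes, of others with a 5′ TOP start and of members with a negative log2 fold change are shown first. Each window runs from 15 bases before the annotated start to 25 bases from it, on the strand of the gene, as given by RefSeq for GRCm38.p6. Capitals mark the run of at least 5 C or T nearest to the start.
Rpl38 (chr11:114668565-114668604, plus strand): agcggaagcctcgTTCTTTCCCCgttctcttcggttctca
Rpl13a (chr7:45128721-45128760, minus strand): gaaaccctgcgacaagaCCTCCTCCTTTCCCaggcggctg
Rpl31 (chr1:39367836-39367875, plus strand): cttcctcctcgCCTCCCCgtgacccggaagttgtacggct
Rpl39 (chrX:37085198-37085237, minus strand): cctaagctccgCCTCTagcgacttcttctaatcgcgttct
Rps27l (chr9:66946071-66946110, plus strand): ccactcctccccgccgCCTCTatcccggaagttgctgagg
Rps6 (chr4:86857343-86857382, minus strand): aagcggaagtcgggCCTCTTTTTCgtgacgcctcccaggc
Rplp2 (chr7:141447636-141447675, plus strand): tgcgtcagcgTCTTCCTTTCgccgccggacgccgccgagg
Rps15a (chr7:118116123-118116162, minus strand): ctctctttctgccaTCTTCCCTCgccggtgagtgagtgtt
Rpl35a (chr16:33056467-33056506, plus strand): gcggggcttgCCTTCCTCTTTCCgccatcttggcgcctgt
Rpl41 (chr10:128549144-128549183, minus strand): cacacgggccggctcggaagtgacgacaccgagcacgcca
Rpl22 (chr4:152325711-152325750, plus strand): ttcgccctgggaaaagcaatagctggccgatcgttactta

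Among these 11 windows, the starts of Rpl38, Rps6, Rplp2, Rps15a and Rpl35a begin with a C and at least 4 further pyrimidines. The run of Rpl13a begins 2 bases past its annotated start, and the windows of Rpl41 and Rpl22 hold no run of 5. Where a gene has several annotated starts, one that begins with the 5′ TOP letters was taken, otherwise the first listed. An annotated start a few bases off would hide a tract, so a window without one says only that these letters are not at that position.

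Values were read as FPKM, which divide fragments by transcript length and by library total, and sequencing depth is unknown. In the fit over all genes, 332 of 13256 passed the test (adjusted p under 0.05), 167 of them higher and 165 lower in the libraries labelled CM-RevDKO. Scaled without the mitochondrially encoded genes, 118 were higher and 212 lower. The total of 332 fell to between 120 and 213 with any 1 library left out other than CM-RevDKO replicate 3. Arntl, which REV-ERB represses, averaged 12.8 ± 0.229 FPKM in the libraries labelled CM-RevDKO and 0.174 ± 0.109 FPKM in those labelled control (SD, n = 3 each). Nr1d1, which encodes REV-ERBα, averaged 50.3 ± 4.60 FPKM in the libraries labelled CM-RevDKO and 20.5 ± 4.78 FPKM in those labelled control (SD, n = 3 each). It was higher in all 3, where loss of the whole message would lower it. Nr1d2, which encodes REV-ERBβ, averaged 27.4 ± 1.24 FPKM in the libraries labelled CM-RevDKO and 35.7 ± 4.89 FPKM in those labelled control (SD, n = 3 each). It was lower in all 3 but not past the test (log2 fold change -0.36, adjusted p = 0.175). No source used here says which exons were deleted, and a gene-level value that includes other exons checks nothing about the deletion, so each direction given rests on the labels. The libraries labelled CM-RevDKO replicates 1 and 2 stood apart in single abundant transcripts. For the feature mmu-mir-689-2 these libraries had 3683 and 1813 FPKM, where the lowest of the other 4 had 25204 FPKM. For mt-Atp8 these libraries had 18989 and 19303 FPKM, where the highest of the other 4 had 9769 FPKM. All 12 cardiomyocyte markers were present, with a median level of 2658 FPKM.

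As a group, ribosomal protein transcripts stood slightly higher in the libraries labelled CM-RevDKO. The summed FPKM of the 82 members was 27015, 25984 and 24009 in the libraries labelled CM-RevDKO, against 21253, 21464 and 23207 in those labelled control. The groups do not overlap, and the lowest CM-RevDKO value lies close to the highest control value. The means were 25669 ± 1527 in the libraries labelled CM-RevDKO and 21974 ± 1073 in those labelled control (SD, n = 3 each), a ratio of 1.17. As a share of all values outside the mitochondrially encoded genes, the members held 6.18%, 6.26% and 5.34% in the libraries labelled CM-RevDKO and 5.21%, 5.06% and 5.69% in those labelled control. On this scale the groups overlap, since CM-RevDKO replicate 3 falls below control replicate 3. The ratio of the group means was 1.11 on this scale and 1.13 as a share of all values. The summed FPKM of all genes was itself higher in every library labelled CM-RevDKO. It ran from 702391 to 712158 in these and from 678722 to 691212 in those labelled control. In bulk tissue, more RNA per cell and more cells of a type rich in these transcripts cannot be told apart.

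Of the 82 members, 75 had a positive log2 fold change (91.5%), where 53.7% of all genes tested did. Their median was 0.20 on the log2(FPKM + 1) scale, against 0.02 over all genes tested. In 32 members (39.0%) every library labelled CM-RevDKO lay above every library labelled control, against a background of 12.6% of all genes, and in 0 members did every one lie below, against 10.5%. At an unadjusted p under 0.05 there were 27 members (32.9%), all higher, against 16.6% of all genes. Only Rpl38 passed the test with limma after Benjamini-Hochberg adjustment over all genes. A single call among 82 members is near the background, where 2.5% of genes were called in either direction and 1.26% higher. The fold of the group means reached 1.5 in 2 members and lay between 0.9 and 1.1 in 24.

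The direction of the group, but not the number of members that share it, held under every scaling tried. Quantile normalization gave a median of 0.09 with 60 members positive, scaling without the mitochondrially encoded genes gave 0.13 with 63, and leaving out mmu-mir-689-2 as well gave 0.07 with 56. All genes together had medians of -0.01, -0.04 and -0.08 under these scalings, so the members remained between 0.09 and 0.16 above the median gene. The share of all genes that was positive also fell, from 53.7% to 49.1%, 43.2% and 36.4%.

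**Figure D1:**
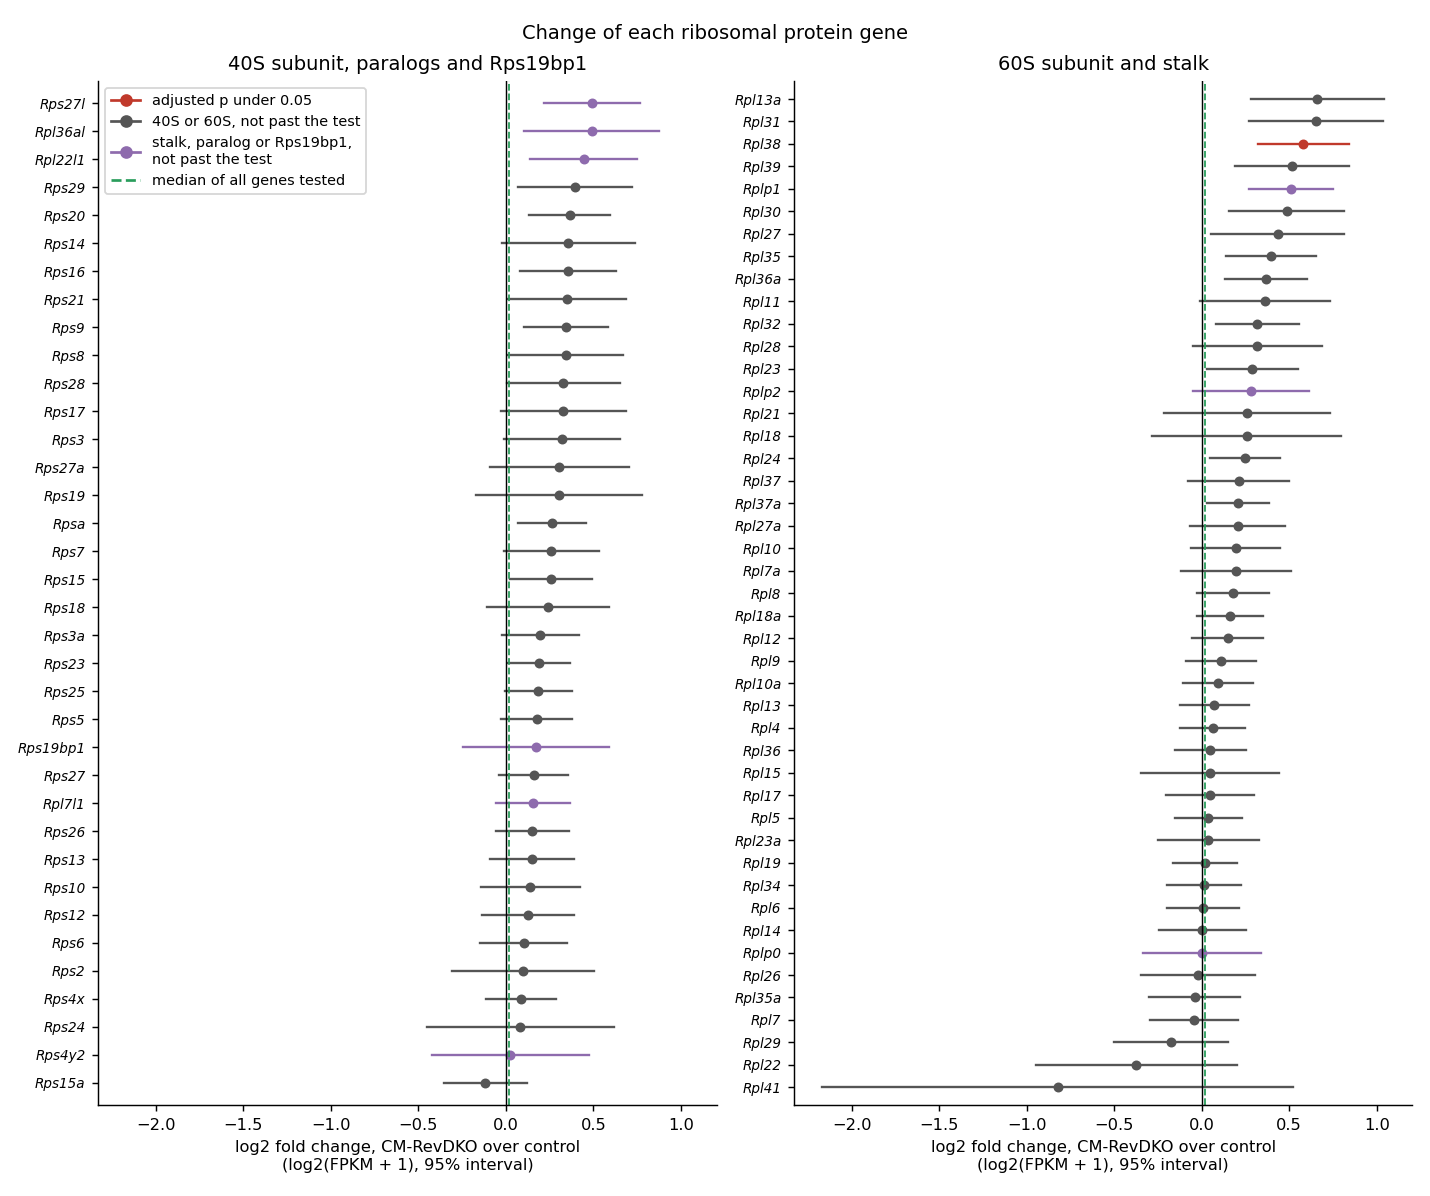
Log2 fold change of 81 of the 82 members, CM-RevDKO over control, with its 95% interval from limma, ordered within each panel; the dashed line is the median of all genes tested (0.02). Of the intervals drawn, 26 lie wholly above 0 and 55 hold 0, Rpl38 is the 1 member past the test, and Rpl41 has the widest interval (-2.17 to 0.52).

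The levels of the members spread widely although the proteins are used in near-equal numbers. Over the 76 genes for proteins of the mature ribosome the mean level ran from 43.4 FPKM (Rps15a) to 928 FPKM (Rplp1), a ratio of 21.4. Most lay in a narrower band, with 68 of the 76 between 100 and 600 FPKM and a median of 272 FPKM. The 5 highest were Rplp1 (928 FPKM), Rps29 (853 FPKM), Rps14 (646 FPKM), Rpl36 (607 FPKM) and Rpl13a (584 FPKM). The 4 under 100 FPKM were Rps15a (43.4 FPKM), Rps20 (50.1 FPKM), Rpl21 (82.5 FPKM) and Rpl22 (98.2 FPKM), of which Rps20 and Rpl21 lie outside the rule for named genes and were picked after their values were seen. Among the highest, Rps29 spread from 613 to 841 FPKM within the libraries labelled control alone, so its place relative to Rplp1 and Rps14 is not firm. The paralogs Rps4y2 and Rpl7l1 and the RPS19-binding gene Rps19bp1 were the lowest of all members, at 15.3, 14.4 and 8.79 FPKM. Log2 levels across the 82 members correlated between any pair of libraries with Pearson's r of 0.951 to 0.983, a description over genes that share each library. The level of a member had little bearing on its change, with a Spearman correlation across the 82 members of 0.08.

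**Figure D2:**
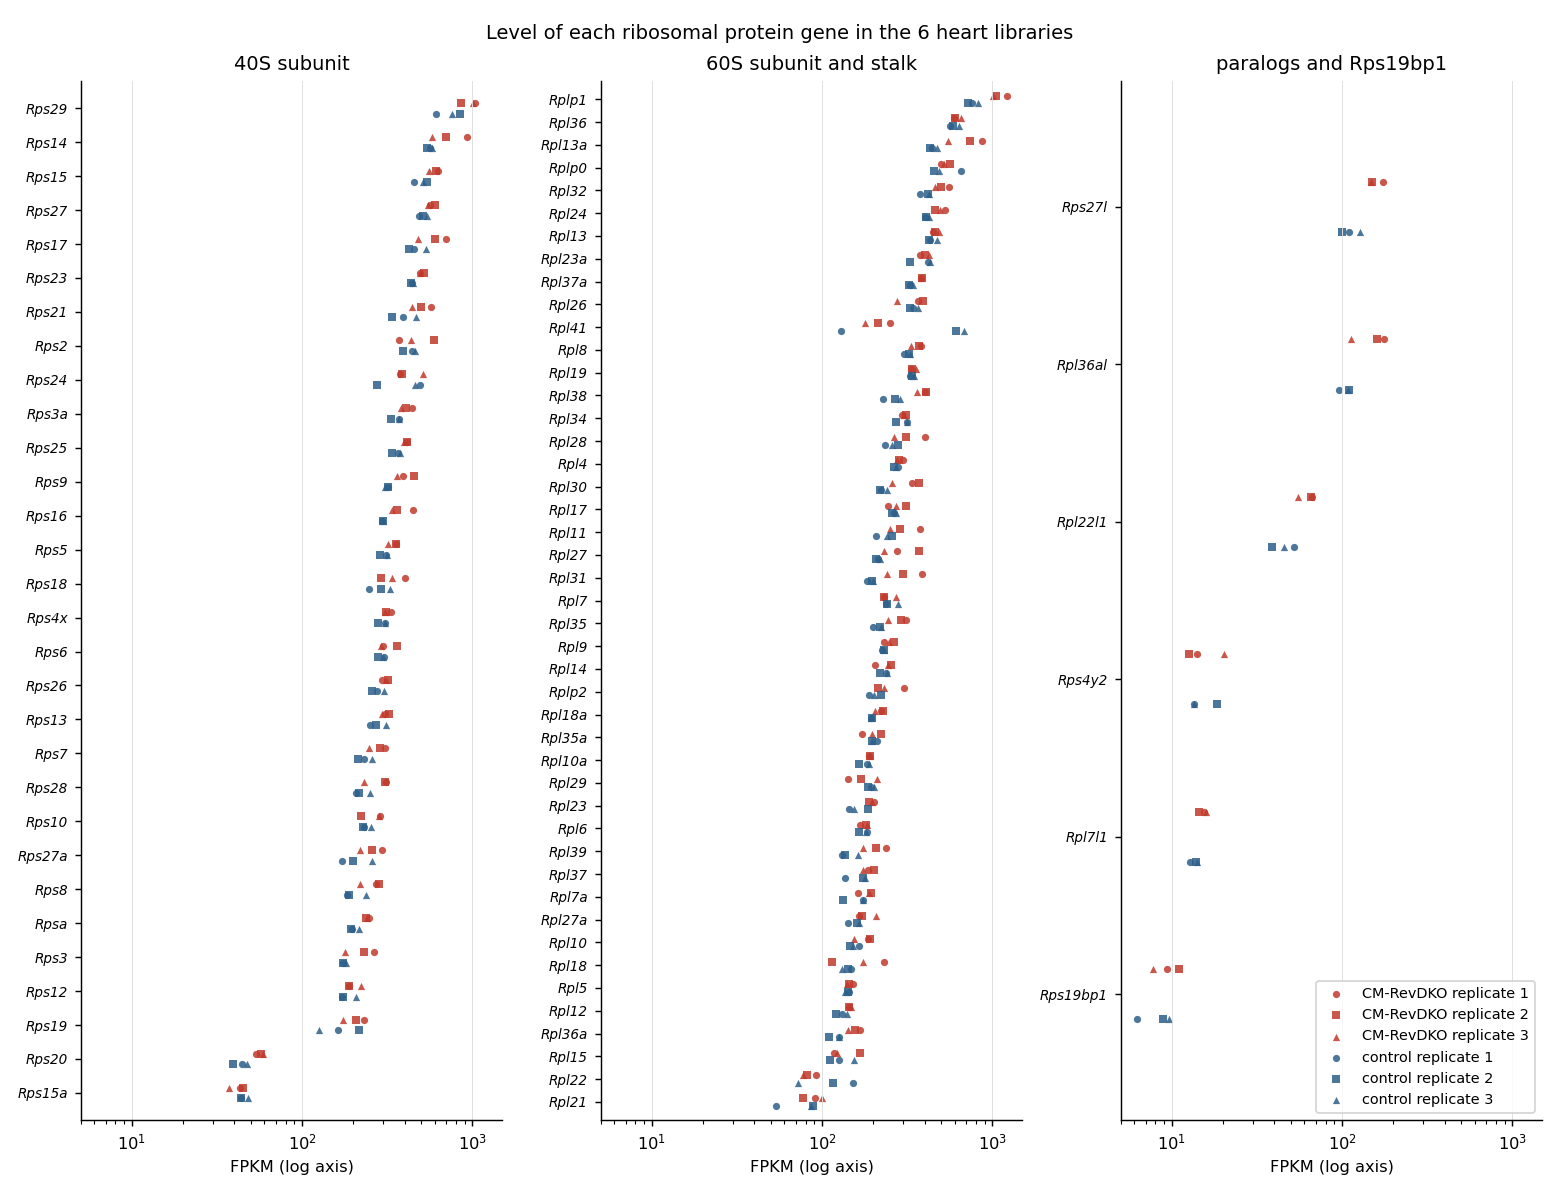
FPKM (log axis) of 81 of the 82 members in each library, ordered by mean level within 3 panels (40S, 60S with stalk, paralogs with Rps19bp1); red markers are the libraries labelled CM-RevDKO and blue markers those labelled control, with circle, square and triangle for replicates 1, 2 and 3. Most rows show the red markers to the right of or among the blue ones. For Rpl41 and Rpl22, 1 control library lies below all red markers and 2 lie above them. Those of Rpl41 are the furthest apart, with 1 control library at 129 FPKM and 2 above 600 FPKM.

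Within the 40S subunit, 30 of 31 genes had a positive log2 fold change, with a median of 0.26 and a middle range of 0.15 to 0.34. None passed the test, where 2.5% of all genes did in either direction. In 12 (38.7%) every library labelled CM-RevDKO was the higher, against 12.6% of all genes. Rps14, whose loss on 1 allele drives the anaemia of the human 5q- syndrome, measured 924, 694 and 577 FPKM in the libraries labelled CM-RevDKO and 564, 538 and 580 FPKM in those labelled control, so the groups overlap (log2 fold change 0.36, SE 0.16, adjusted p = 0.331).

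Rpsa, which is also known as a laminin receptor, was among the steadier 40S genes. It had 247, 236 and 240 FPKM in the libraries labelled CM-RevDKO and 196, 192 and 215 FPKM in those labelled control, so the log2 fold change of 0.26 was larger than its SE of 0.08 but missed the threshold (adjusted p = 0.173). Rps29, a small zinc-binding 40S protein, had 1039, 851 and 1011 FPKM in the libraries labelled CM-RevDKO and 613, 841 and 762 FPKM in those labelled control (0.39, SE 0.14, adjusted p = 0.212). For Rps29 as for Rpsa the groups do not overlap. For Rps19, the gene most often mutated in human Diamond-Blackfan anaemia, the groups overlapped, with 230, 207 and 173 FPKM in the libraries labelled CM-RevDKO and 162, 217 and 125 FPKM in those labelled control.

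Other 40S genes of known function had log2 fold changes nearer to 0. Rps6, the substrate of the S6 kinases downstream of mTORC1, had 297, 360 and 289 FPKM in the libraries labelled CM-RevDKO and 302, 277 and 299 FPKM in those labelled control (log2 fold change 0.10, SE 0.11, adjusted p = 0.688). Its 95% interval ran from -0.15 to 0.35. Rps26, another gene of Diamond-Blackfan anaemia, differed by 0.15 on the log2 scale (SE 0.09, adjusted p = 0.453), and Rps27 had 0.16 (SE 0.08, adjusted p = 0.402). Rps4x, encoded on the X chromosome, had 0.09 (SE 0.09, adjusted p = 0.662), and changed sign under quantile normalization and under scaling without the mitochondrially encoded genes and mmu-mir-689-2. Rps15a was the only 40S gene with a negative log2 fold change (-0.12, SE 0.10, adjusted p = 0.616). Its groups overlapped, at 43.1, 44.7 and 37.3 FPKM in the libraries labelled CM-RevDKO and 43.9, 43.7 and 47.9 FPKM in those labelled control.

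Within the 60S subunit the genes were more divided, with 36 of 42 above 0, a median of 0.17 and a middle range of 0.04 to 0.31. Rpl38 (ENSMUSG00000057322, chromosome 11, 114667818 to 114672333, GRCm38.p6) was the member that rose. RPL38 is known in the mouse embryo for its part in the translation of Hox messages. Its gene measured 401, 407 and 358 FPKM in the libraries labelled CM-RevDKO, against 227, 268 and 286 FPKM in those labelled control. All 3 libraries labelled CM-RevDKO lie above the highest control by more than the spread within either group. The means were 389 ± 26.6 FPKM in the libraries labelled CM-RevDKO and 260 ± 29.9 FPKM in those labelled control (SD, n = 3 each), and the log2 fold change was 0.58 (SE 0.11, 95% interval 0.32 to 0.84, adjusted p = 0.0424). The call stands close to the threshold. Leaving out any 1 of the 6 libraries ended it, with adjusted p-values between 0.0502 and 0.142. Each of the 4 other scalings ended it too, with adjusted p-values between 0.0576 and 0.0881. In all 10 of these fits the log2 fold change stayed at 0.46 or more.

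The gene Rpl13a (ENSMUSG00000074129, chromosome 7, 45125563 to 45128745) had the highest positive log2 fold change of all members. RPL13A is a 60S protein that in human myeloid cells is known to leave the ribosome and silence inflammatory messages. It measured 873, 741 and 549 FPKM in the libraries labelled CM-RevDKO and 440, 429 and 475 FPKM in those labelled control. The groups do not overlap, but the 3 libraries labelled CM-RevDKO differ widely among themselves, and the difference did not pass the test (0.66, SE 0.16, adjusted p = 0.0942). Rpl31, which lies near the exit of the tunnel through which the new protein leaves, had 386, 300 and 241 FPKM in the libraries labelled CM-RevDKO and 182, 197 and 199 FPKM in those labelled control (0.65, SE 0.16, adjusted p = 0.0980). Rpl39, which lines that tunnel, had 238, 208 and 173 FPKM in the libraries labelled CM-RevDKO and 131, 137 and 163 FPKM in those labelled control (0.52, SE 0.14, adjusted p = 0.119). In all of Rpl13a, Rpl31 and Rpl39, CM-RevDKO replicate 1 was the highest library and replicate 3 the lowest of its group.

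Without CM-RevDKO replicate 3, a fit that keeps the 2 libraries that stood apart, 5 members passed the test, all higher, where 1.42% of all genes were called higher in that fit. Among them were Rpl13a (adjusted p = 0.0168), Rpl31 (0.0331), Rpl36al (0.0340) and Rpl30, the last named after its values were seen. None of the 5 passed with all 6 libraries, and Rpl38 did not pass without replicate 3 (0.0502).

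**Figure D3:**
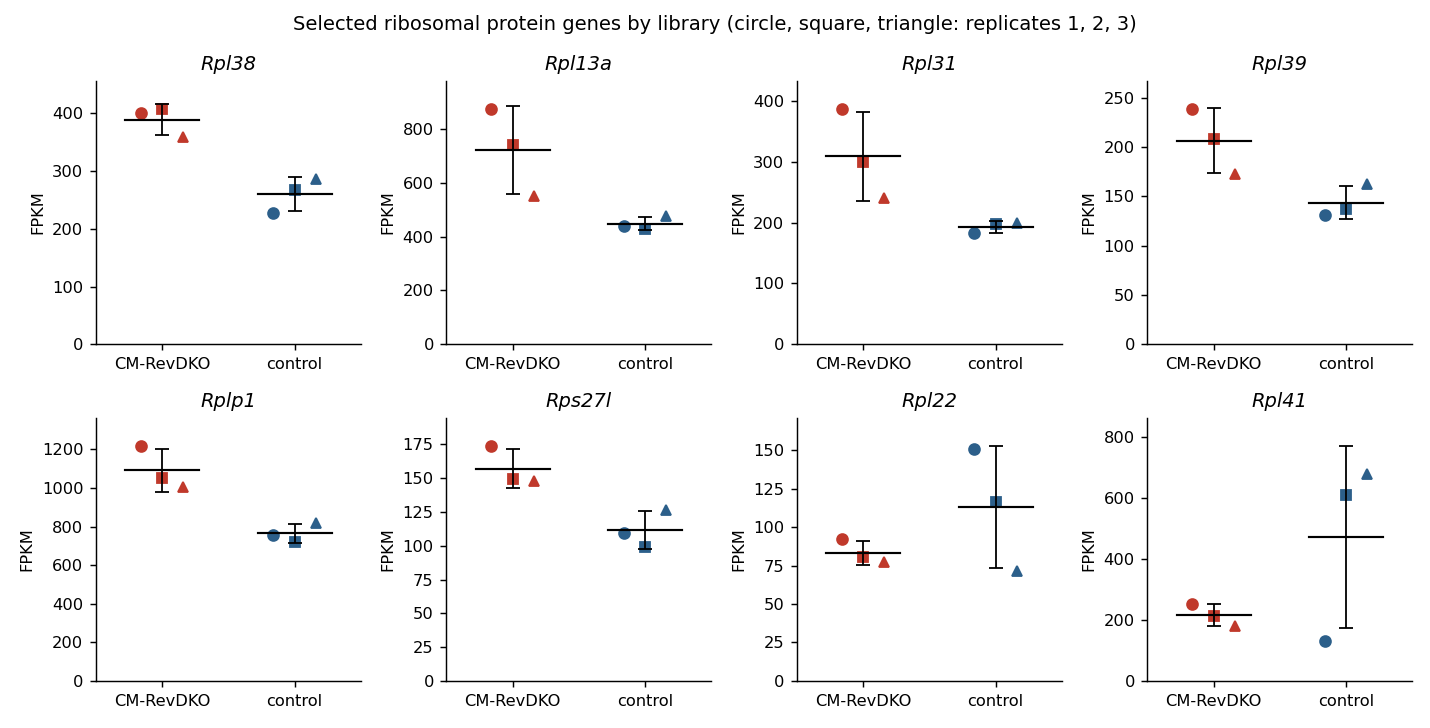
FPKM of 8 members in each library, with CM-RevDKO left of control in every panel, horizontal lines at the group mean and bars of 1 SD (n = 3 each); circle, square and triangle are replicates 1, 2 and 3. Groups do not overlap for Rpl38, Rpl13a, Rpl31, Rpl39, Rplp1 and Rps27l, while for Rpl22 and Rpl41 the control libraries spread more widely than the difference between the means.

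Genes of the 5S particle and of the subunit's late assembly came out as follows. Rpl5 and Rpl11 bind 5S RNA and, when free, the p53 regulator MDM2. Rpl5 had 152, 143 and 139 FPKM in the libraries labelled CM-RevDKO and 144, 142 and 137 FPKM in those labelled control, a log2 fold change of 0.04 (SE 0.08) that turned negative under quantile normalization and both scalings without the mitochondrially encoded genes. Its partner Rpl11 had 375, 286 and 251 FPKM in the libraries labelled CM-RevDKO and 206, 256 and 239 FPKM in those labelled control (0.36, SE 0.16, adjusted p = 0.313). The values of Rpl11 overlap by a narrow margin, between CM-RevDKO replicate 3 and control replicate 2. Rpl10, which joins the subunit late, differed by 0.19 on the log2 scale (SE 0.11, adjusted p = 0.424). Rpl36, the most abundant 60S message outside the stalk, had 0.05 (SE 0.09, adjusted p = 0.830), with a sign that changed when scaled without the mitochondrially encoded genes.

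The stalk recruits the elongation factors to the ribosome, through pairs of the small acidic proteins P1 and P2 on the base protein P0. Rplp1, the most abundant member, measured 1218, 1052 and 1005 FPKM in the libraries labelled CM-RevDKO and 755, 718 and 819 FPKM in those labelled control. Every library labelled CM-RevDKO was higher, and the difference just missed the threshold (log2 fold change 0.51, SE 0.10, adjusted p = 0.0534). It passed when the filter was raised to a mean of 5 FPKM, which left 7255 genes (adjusted p = 0.0403). Rplp2 had 302, 213 and 232 FPKM in the libraries labelled CM-RevDKO and 187, 221 and 201 FPKM in those labelled control, which overlap (0.28, SE 0.14, adjusted p = 0.377). For Rplp0 the groups had nearly the same mean, with 500, 563 and 520 FPKM in the libraries labelled CM-RevDKO and 657, 456 and 487 FPKM in those labelled control. Its log2 fold change was 0.00 (SE 0.14, 95% interval -0.33 to 0.34), and its sign differed between scalings.

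Paralogs, which replace or accompany a ribosomal protein in some cells, had a median log2 fold change of 0.45. Of only 5 rows, 4 were higher in every library labelled CM-RevDKO, against 12.6% of all genes. None passed the test, where 2.5% of all genes did in either direction. Rps27l, a p53 target, measured 174, 149 and 148 FPKM in the libraries labelled CM-RevDKO and 110, 99.1 and 126 FPKM in those labelled control (0.49, SE 0.12, adjusted p = 0.0873). Rpl36al encodes a near-identical copy of RPL36A and had 177, 159 and 113 FPKM in the libraries labelled CM-RevDKO and 95.5, 110 and 109 FPKM in those labelled control (0.49, SE 0.17, adjusted p = 0.198). Its parent Rpl36a had 166, 155 and 143 FPKM in the libraries labelled CM-RevDKO and 125, 109 and 125 FPKM in those labelled control (0.37, SE 0.10, adjusted p = 0.119). Reads of such close copies can be split between the rows, so the values of each pair are uncertain.

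The pair Rpl22l1 and Rpl22 differed in sign. Rpl22l1 had 66.2, 65.2 and 54.6 FPKM in the libraries labelled CM-RevDKO and 51.8, 38.9 and 45.6 FPKM in those labelled control (log2 fold change 0.45, SE 0.13, adjusted p = 0.147). Rpl22 had 92.2, 80.9 and 77.2 FPKM in the libraries labelled CM-RevDKO and 151, 116 and 71.7 FPKM in those labelled control (-0.37, SE 0.25, adjusted p = 0.50). As a percentage of Rpl22, Rpl22l1 stood at 71.8, 80.6 and 70.8 in the libraries labelled CM-RevDKO and at 34.3, 33.4 and 63.6 in those labelled control. The ranges do not overlap, although control replicate 3 lies close to the CM-RevDKO values. The exact two-sided permutation test over the 3 and 3 libraries gave p = 0.1, the smallest it can give, and 0.133 adjusted over the 4 paralog pairs. Percentages of Rps27l to Rps27 (27.4 ± 3.06 in the libraries labelled CM-RevDKO and 21.7 ± 2.08 in those labelled control) and of Rpl7l1 to Rpl7 (6.23 ± 0.421 and 5.39 ± 0.407; SD, n = 3 each) also did not overlap between the groups, at the same smallest exact permutation p. For Rpl36al to Rpl36a they overlapped (96.0 ± 14.5 in the libraries labelled CM-RevDKO and 88.0 ± 12.3 in those labelled control; exact permutation p = 0.5). Rpl7l1 itself had a log2 fold change of 0.15 (SE 0.09), Rps4y2 of 0.03 and Rps19bp1 of 0.17 (SE 0.18).

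The 7 members with a negative log2 fold change were Rpl41, Rpl22, Rpl29, Rps15a, Rpl7, Rpl35a and Rpl26, and none passed the test with all 6 libraries. In none did every library labelled CM-RevDKO lie below the controls. Rpl41, which encodes a very short basic peptide at the junction of the subunits, gave the widest spread of any member. It measured 251, 213 and 179 FPKM in the libraries labelled CM-RevDKO and 129, 607 and 677 FPKM in those labelled control. Control replicate 1 lies below all 3 libraries labelled CM-RevDKO, and the other 2 controls lie far above them. The log2 fold change was -0.82 (SE 0.58, adjusted p = 0.525). Without control replicate 1 it was -1.59 and passed the test (adjusted p = 0.0170), so a single library decides this call. Without Rpl41, the summed FPKM of the members was 25455 ± 1492 in the libraries labelled CM-RevDKO and 21503 ± 899 in those labelled control (SD, n = 3 each), a ratio of 1.18.

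The other members below 0 had log2 fold changes of smaller size. Rpl29, also known as a heparin-binding protein, had 142, 169 and 209 FPKM in the libraries labelled CM-RevDKO and 194, 186 and 200 FPKM in those labelled control (-0.17, SE 0.14, adjusted p = 0.582). The log2 fold changes of Rpl7, Rpl35a and Rpl26 were -0.04 (SE 0.11), -0.04 (SE 0.11) and -0.02 (SE 0.14). For Rpl29, Rpl7, Rpl35a and Rpl26 the sign changed in at least 1 fit with libraries left out.

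The libraries labelled CM-RevDKO did not share in the difference equally. The median displacement of the 82 members from the control mean came to 0.24, 0.23 and 0.12 (log2) for CM-RevDKO replicates 1, 2 and 3, and -0.02, -0.04 and 0.06 for control replicates 1, 2 and 3. All 3 libraries labelled CM-RevDKO were thus above all 3 labelled control, with replicate 3 nearest to them. The members above the control mean numbered 64, 72 and 72 of 82 in replicates 1, 2 and 3, and those above every control numbered 54, 60 and 51. Of all genes tested, 39.1%, 27.1% and 28.4% lay above every control in replicates 1, 2 and 3. Replicates 1 and 2 were both above replicate 3 in 46 of 82 members (56.1%), against 37.2% of all genes. A member's highest value fell in a library labelled CM-RevDKO in 75 of 82 cases, 37 of them in replicate 1, 25 in replicate 2 and 13 in replicate 3. For all genes tested the share with the highest value in a library labelled CM-RevDKO was 53.0%. By replicate 1, 2 and 3 the shares were 45.1%, 30.5% and 15.9% of the members, against 29.2%, 10.5% and 13.4% of all genes.

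With CM-RevDKO replicates 1 and 2 left out, replicate 3 alone against the controls gave a median of 0.12 over the members. Of the 82, 72 were positive, where 51.0% of all genes were. In that fit the lone library is assumed to vary like the controls, so no calls are given for it. The subunit medians were then 0.12 for the 40S and 0.11 for the 60S genes, where all 6 libraries gave 0.26 and 0.17. The median coefficient of variation of the members was 10.4% within the libraries labelled CM-RevDKO and 6.87% within those labelled control, a difference that was not tested.

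**Figure D4:**
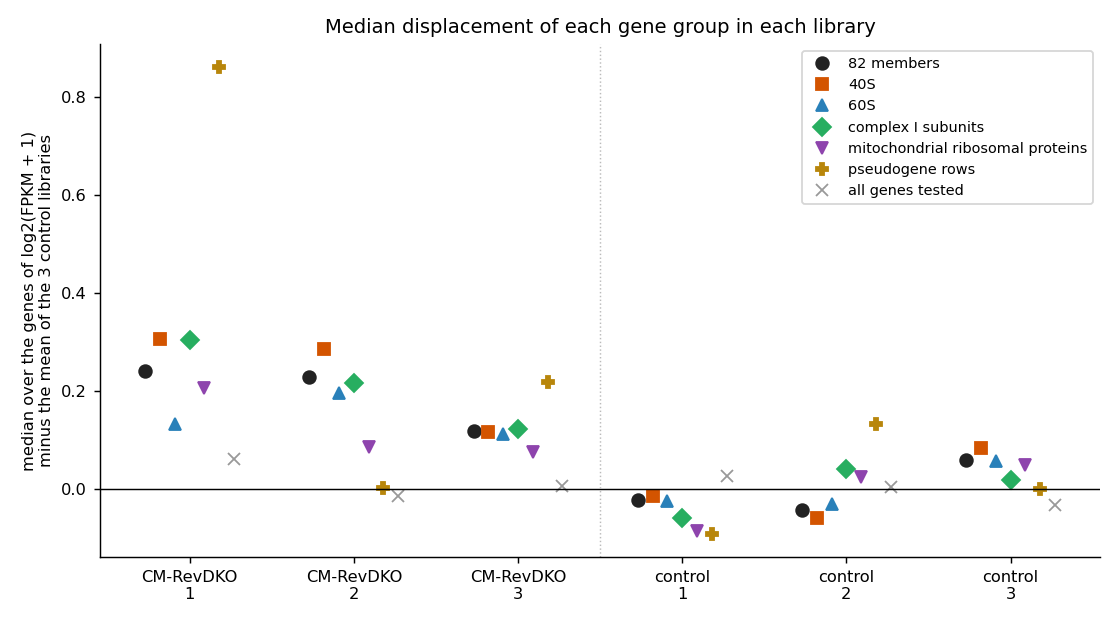
For each library, with the 3 labelled CM-RevDKO on the left and the 3 labelled control on the right, the median over the genes of each group of log2(FPKM + 1) minus the mean of the 3 control libraries. The 82 members stand at 0.24, 0.23 and 0.12 in the libraries labelled CM-RevDKO and between -0.04 and 0.06 in those labelled control, all genes tested stay between -0.03 and 0.06, and pseudogene rows reach 0.86 in CM-RevDKO replicate 1.

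Markers of other cells were also high in some of these libraries. Of 6 atrial markers 5 were tested, none past the test, and Bmp10 was under the filter. Their summed level was 706, 192 and 229 FPKM in the libraries labelled CM-RevDKO and at most 140 FPKM in those labelled control, so replicate 1 stands far above the rest. Adipocyte markers (5 of 6 tested, Lep having no row, none past the test) summed to 83.9, 47.0 and 11.7 FPKM in the libraries labelled CM-RevDKO and to 9.37 to 14.5 FPKM in those labelled control. The 10 macrophage markers, none past the test, summed to 391, 231 and 239 FPKM in the libraries labelled CM-RevDKO and to 252 to 276 FPKM in those labelled control, and all 10 were highest in CM-RevDKO replicate 1. Both neutrophil markers were highest in that library too, with sums of 51.6, 16.8 and 12.3 FPKM in the libraries labelled CM-RevDKO and 8.94 to 26.7 FPKM in those labelled control. Smooth muscle markers (4 of 4 tested) summed to 103, 82.4 and 107 FPKM in the libraries labelled CM-RevDKO and to 54.4 to 72.3 FPKM in those labelled control, without overlap. Erythroid markers (5 of 7 tested) summed to 11003, 8867 and 8703 FPKM in the libraries labelled CM-RevDKO and to 5010 to 9005 FPKM in those labelled control. The endothelial sums (379 to 433 FPKM for CM-RevDKO libraries and 359 to 406 FPKM in those labelled control) overlapped. So did the fibroblast sums (399 to 514 FPKM for CM-RevDKO libraries and 382 to 549 FPKM in those labelled control) and the cardiomyocyte sums (32306 to 35897 FPKM for CM-RevDKO libraries and 32391 to 34686 FPKM in those labelled control). None of these markers passed the test. Single cardiomyocyte markers differed in both directions beneath the overlapping sums. Of the 12, 3 were higher in every library labelled CM-RevDKO and 4 lower in every one, against 12.6% and 10.5% of all genes. At an unadjusted p under 0.05 in limma there were 6 (50%), against 16.6% of all genes. No marker tested was at 0 in any library. The 3 B cell markers tested summed to 18.2, 12.8 and 8.43 FPKM in the libraries labelled CM-RevDKO and to 5.10 to 9.16 FPKM in those labelled control, and none of the 3 T cell markers had one. The part of these cells in the ribosomal protein difference was not tested. CM-RevDKO replicate 3 had atrial and smooth muscle sums above every control and an adipocyte sum within the range of the controls. Single markers in that library did not all follow these sums. The atrial Dkk3 and Stard10 and the smooth muscle Myh11 and Tagln were not above every control. Of the adipocyte markers, Adipoq and Retn were above every control, and Cidec and Plin1 below every control.

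Many ribosomal protein genes have processed pseudogenes, near-identical copies elsewhere in the genome, and reads can be assigned to either. The table held 78 such rows, of which 74 were tested and 0 passed the test. Their median log2 fold change was 0.38, with 64 of 74 positive and 14 without overlap and higher (18.9%, against 12.6% of all genes). CM-RevDKO replicate 1 carried most of it, since the median displacement from the control mean was 0.86, 0.0016 and 0.22 (log2) for CM-RevDKO replicates 1, 2 and 3. Their summed FPKM was 1701, 1373 and 1383 in the libraries labelled CM-RevDKO and 1058, 1144 and 1228 in those labelled control, or 5.28% to 6.29% and 4.98% to 5.33% of the members' sum. The highest value lay in CM-RevDKO replicate 1 for 54 of the 74 rows, against 37 of 82 members and 29.2% of all genes tested.

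Of the members, 39 had at least 1 pseudogene row, and their median log2 fold change was 0.14, against 0.25 for the 43 without one. Rpl35a stood out, with 4 rows that together reached 142% of its own level. Those rows summed to 522, 287 and 252 FPKM in the libraries labelled CM-RevDKO and to 178, 230 and 222 FPKM in those labelled control, while Rpl35a itself had 170, 221 and 195 FPKM in the libraries labelled CM-RevDKO and 210, 195 and 195 FPKM in those labelled control. Member and rows together gave 692, 508 and 447 FPKM in the libraries labelled CM-RevDKO and 388, 425 and 418 FPKM in those labelled control, which do not overlap, where the member alone did. The single row of Rpl38, at 101, 124 and 196 FPKM in the libraries labelled CM-RevDKO and 116, 129 and 148 FPKM in those labelled control, equalled 41.8% of the member. Added to Rpl38 it gave 502, 531 and 555 FPKM in the libraries labelled CM-RevDKO and 344, 397 and 434 FPKM in those labelled control, again without overlap. Of the 32 members without overlap, 8 had a pseudogene row, and all 8 remained without overlap when the rows were added. The row Rpl21-ps15 had 31.3, 64.7 and 51.7 FPKM in the libraries labelled CM-RevDKO and 1.87, 1.56 and 61.9 FPKM in those labelled control, so that control replicate 3 stood among the libraries labelled CM-RevDKO. The rows of Rpl35a, Rpl38-ps2 and Rpl21-ps15 were singled out after their values were seen.

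Introns of ribosomal protein genes often hold small nucleolar RNAs (snoRNAs), which guide the modification of ribosomal RNA. Of the 80 members matched to RefSeq by symbol, 28 have at least 1 annotated snoRNA within their span, Rpl13a with 4 among them. All 28 had a positive log2 fold change, with a median of 0.21, and the 52 without a snoRNA had a median of 0.19, with 45 positive. The members lie on 19 chromosomes, 14 of them on chromosome 7. For 3 members the Ensembl ID carries another symbol in the name table used here, which are Rps3a (Rps3a1), Rps4y2 (Rps4l) and Rpl24. The ID beside Rpl24 is that of Zbtb11, so which transcripts that row counts is uncertain.

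In the rest of the translation machinery 0 genes of the following lists passed the test with limma. Of 39 initiation factors 28 were positive, with a median of 0.09. Of 12 elongation and termination factors tested 7 were positive, with a median of 0.04. Ribosome biogenesis factors, which assemble the subunits in the nucleolus, had a median of 0.06 with 38 of 59 positive. The RNA polymerase I list, which makes ribosomal RNA, had a median of -0.05 with 4 of 14 positive. For the mTORC1 and LARP1 branch the median was -0.11 with 6 of 17 positive, and for 10 transcription factors known at ribosomal protein promoters it was 0.04 with 6 positive. All genes tested had a median of 0.02 with 53.7% positive. Of the 7 snoRNA host genes tested 6 were positive, with a median of 0.23.

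Genes whose messages also carry a 5′ TOP tract but that lie outside the naming rule had a median of 0.12, with 14 of 17 positive. Fau, a ubiquitin-like protein fused to S30, had 444, 418 and 353 FPKM in the libraries labelled CM-RevDKO and 300, 320 and 307 FPKM in those labelled control, without overlap (log2 fold change 0.38, SE 0.10, adjusted p = 0.120). Without CM-RevDKO replicate 3 it passed the test (adjusted p = 0.0454). Gnb2l1, the 40S scaffold RACK1, had a negative log2 fold change, with 134, 137 and 136 FPKM in the libraries labelled CM-RevDKO and 146, 139 and 152 FPKM in those labelled control (-0.10, SE 0.08, adjusted p = 0.590).

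The elongation factor Eef1a1 had 570, 458 and 417 FPKM in the libraries labelled CM-RevDKO and 422, 427 and 387 FPKM in those labelled control (0.21, SE 0.13, adjusted p = 0.453). Eef2, which moves the ribosome along the message, had a log2 fold change of 0.15 (SE 0.10), the growth-linked Tpt1 of 0.13 (SE 0.08) and the poly(A)-binding Pabpc1 of 0.07 (SE 0.13). In the nucleolus, the histone chaperone Npm1 had 64.5, 68.6 and 70.3 FPKM in the libraries labelled CM-RevDKO and 57.8, 61.9 and 48.8 FPKM in those labelled control (0.27, SE 0.11, adjusted p = 0.266). Nucleolin (Ncl, 0.15, SE 0.10) and fibrillarin (Fbl, 0.25, SE 0.15) did not pass the test either. Among regulators, Mtor had 7.56, 6.61 and 7.92 FPKM in the libraries labelled CM-RevDKO and 8.59, 8.09 and 9.13 FPKM in those labelled control, without overlap but not past the test (-0.20, SE 0.10, adjusted p = 0.386). Larp1 had a log2 fold change of -0.11 (SE 0.10), Eif4ebp1, an inhibitor of initiation, of -0.17 (SE 0.15), and Myc, an activator of ribosomal genes, of -0.04 (SE 0.23) at about 1 FPKM in both groups.

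Gene groups of the mitochondrion are given beside the members, since those encoded in the nucleus were displaced in the same direction. The 37 nuclear-encoded complex I subunits also had a median of 0.20, with 35 positive, 17 without overlap and higher (45.9%, against 12.6% of all genes) and 1 past the test, near the 2.5% called over all genes. That gene, Ndufv3, measured 911, 816 and 795 FPKM in the libraries labelled CM-RevDKO and 438, 478 and 480 FPKM in those labelled control (0.85, SE 0.09). The 80 mitochondrial ribosomal proteins had a median of 0.10, with 61 positive and 2 past the test, a share equal to the 2.5% called over all genes. These were Mrps23, at 78.7, 71.8 and 66.2 FPKM in the libraries labelled CM-RevDKO and 45.4, 51.6 and 51.3 FPKM in those labelled control, and Mrpl16, at 54.8, 55.6 and 56.9 FPKM in the libraries labelled CM-RevDKO and 34.6, 42.5 and 35.3 FPKM in those labelled control. Their medians by library were 0.30, 0.22 and 0.12 for complex I and 0.21, 0.09 and 0.08 for the mitochondrial ribosomal proteins in CM-RevDKO replicates 1, 2 and 3, highest in replicate 1 and lowest in replicate 3 as for the cytosolic members. The 37 mitochondrially encoded genes had a median of -0.19, with 10 positive and 0 past the test (17 at an unadjusted p under 0.05). The differences between these groups were not tested. Rpl3, which the naming rule leaves out, had a larger change than any member, at 214 ± 27.1 FPKM in the libraries labelled CM-RevDKO and 112 ± 7.04 FPKM in those labelled control (SD, n = 3 each; 0.92, SE 0.11, adjusted p = 0.00780). Its muscle paralog Rpl3l went the opposite way (-1.28, SE 0.09, adjusted p = 7.5e-04).

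Letters of the promoters were read for the 61 members with an entry in the RefSeq promoter table (GRCm38.p6, 250 bases before to 50 bases after the start). These members have 72 promoters in the table, and shares are of promoters on both sides. A start of C followed by at least 4 pyrimidines was found in 13 of the 72 (18.1%), against 2.51% of all 32851 promoters. The motif CCGGAAG, bound by ETS factors such as GABP, was found on either strand in 25 of the 72 (34.7%), against 8.86% of all promoters. AGATGGC, bound by YY1, was found in 10 (13.9%, against 6.40%). The E box CACGTG, bound by MYC and by CLOCK with BMAL1, was in 8 (11.1%, against 7.15%). The nuclear receptor site AGGTCA, bound by REV-ERB and ROR, was in 7 (9.72%, against 16.3%), and TTANGTA, the core bound by E4BP4, in 3 (4.17%, against 6.76%). No motif searched is contained in another. For the medians over members, a gene counts as holding the letters if any of its promoters does. The median log2 fold change was 0.16 for members with the 5′ TOP letters at an annotated start and 0.19 for those without. An annotated start a few bases off would hide a tract, so this split cannot sort members by their tract. With CCGGAAG the median was 0.21, and without it 0.19. It was 0.05 with AGATGGC and 0.21 without. The 5 members with AGGTCA (Rpl22, Rpl24, Rpl35a, Rps3 and Rps4x) had a median of 0.09, against 0.19 without. A match is a description of these letters and not a bound site.

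The promoters of the member that passed the test and of the member with the highest log2 fold change are shown whole. They run from 250 bases before to 50 bases after the start, on the strand of the gene. Capitals mark CCGGAAG (20 bases before the start) and the 5′ TOP run at the start of Rpl38, and CACGTG (200 bases before the start) and AGATGGC (29 bases past it) in Rpl13a.
Rpl38 (chr11:114668330-114668629, plus strand): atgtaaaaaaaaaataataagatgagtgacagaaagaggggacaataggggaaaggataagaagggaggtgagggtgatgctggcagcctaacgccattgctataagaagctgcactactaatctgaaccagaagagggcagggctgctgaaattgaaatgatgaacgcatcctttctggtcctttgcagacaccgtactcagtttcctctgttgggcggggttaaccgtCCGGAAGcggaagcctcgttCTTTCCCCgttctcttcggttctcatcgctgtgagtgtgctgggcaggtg
Rpl13a (chr7:45128696-45128995, minus strand): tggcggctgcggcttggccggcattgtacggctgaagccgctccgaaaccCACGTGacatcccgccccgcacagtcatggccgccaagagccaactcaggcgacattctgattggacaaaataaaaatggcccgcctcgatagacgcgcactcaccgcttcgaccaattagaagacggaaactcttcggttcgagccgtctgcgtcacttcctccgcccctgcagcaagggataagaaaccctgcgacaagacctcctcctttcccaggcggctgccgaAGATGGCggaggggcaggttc
Neither window holds AGGTCA or TTANGTA. The palindrome CACGTG reads alike on both strands.

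**Figure D5:**
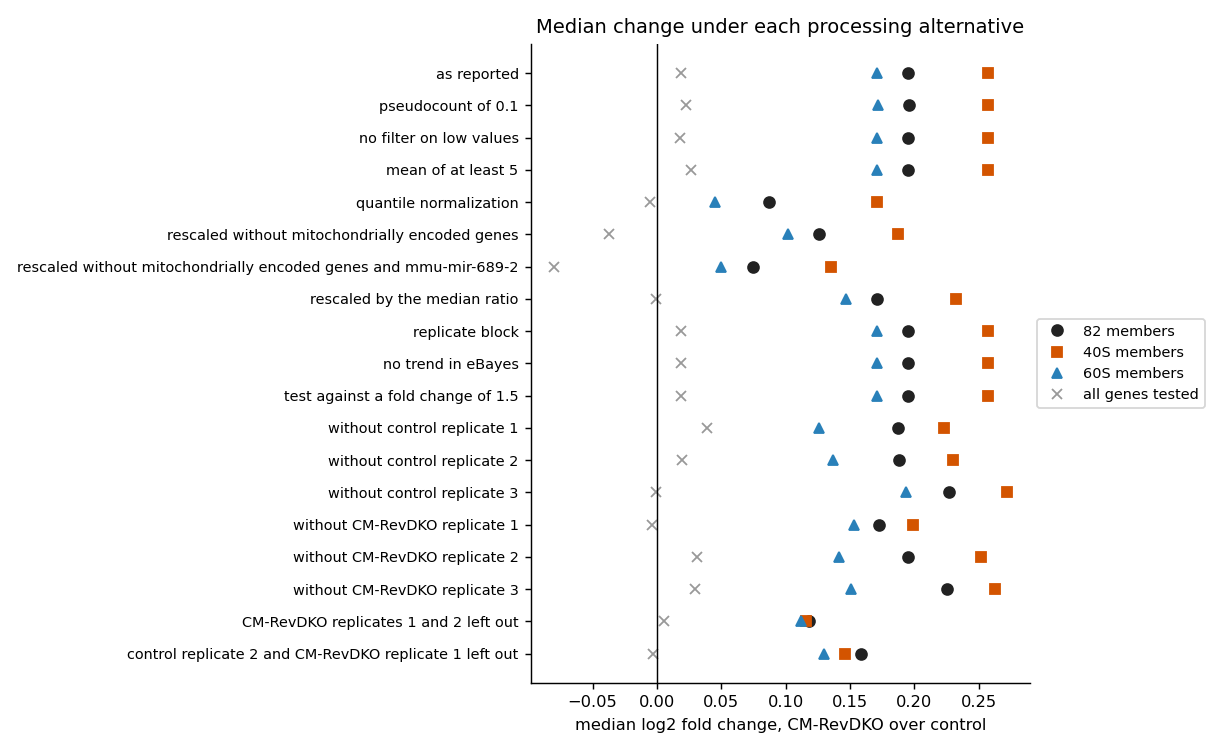
Median log2 fold change, CM-RevDKO over control, of the 82 members, the 40S and 60S members and all genes tested under each processing alternative, with the reported fit at the top. The members' median stays above 0 and above that of all genes in every fit, between 0.07 and 0.23. It is lowest when scaled without the mitochondrially encoded genes and mmu-mir-689-2. Alternatives that changed only the filter, the model or the test could not move the members' median.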

How the data were processed

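The deposited table holds 13575 genes in 6 RNA libraries. Its header names no unit. The values were read as FPKM, made by the authors with HISAT2, StringTie and the mm10 build per the submitters' processing notes, which give no versions. FPKM and TPM could not be told apart, and depth is unknown, so no counting error can be given. Another 24 samples of the series were not analysed here.

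Genes averaging 0.5 FPKM or more over the 6 libraries (13256) were fitted as log2(FPKM + 1) with limma 3.58.1 (R 4.3.3, lmFit and eBayes with trend, group as the only term), and adjusted p-values are Benjamini-Hochberg over all of them, called under 0.05. Fold changes on this scale understate those of low genes. Adjusted p-values in the text are from limma, from this fit unless another setting is named beside them, except those over the paralog pairs, which are from exact permutation tests. Tables used pandas 2.3.3 and numpy 2.4.6 (Python 3.11.15). The fit was tested on simulated data. Intervals are 95%. Members and lists were chosen with earlier results of these data known, and their counts are descriptions. Genes named are members past the test, those below 0, the 5 with the largest change and the 5 with the highest mean, a fixed list of members of known function, the paralog pairs and Rps19bp1, and, from the lists, genes past the test and 14 set genes. Others are marked where they appear. The libraries were not treated as pairs in this fit, and whether the replicate numbers pair them is not known. Alternatives changed the pseudocount, filter, scaling, model and libraries. Names and sequences are from RefSeq tables for GRCm38.p6. A few genes are counted in the totals and lists but are not reported by name here.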

Additional observations from a re-analysis of the deposited data

How the results depend on the processing

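The members' median log2 fold change was above 0 in all 18 alternatives. It could not move in those that changed only the filter, the model or the test, which leave each member's fold change as it was. It was 0.087 with quantile normalization, 0.13 without the mitochondrially encoded genes, 0.074 without mmu-mir-689-2 as well, and 0.12 with CM-RevDKO replicates 1 and 2 left out. Members called numbered 2 at a mean of at least 5 FPKM. They numbered 0 under each of the 4 other scalings, the replicate block, no trend and a test against a fold of 1.5. Without control replicate 2 and CM-RevDKO replicate 1 the number was 0 too. Leaving out 1 library gave 0 to 5. The genes called over the whole table fell to 115 with the replicate block, 35 against a fold of 1.5, 21 without CM-RevDKO replicates 1 and 2, and 105 without control replicate 2 and CM-RevDKO replicate 1. Leaving out 1 library gave 120 to 322. Deviations from the group mean correlated at -0.037, -0.064 and 0.093 between same-numbered libraries. Differently numbered libraries gave -0.089 to 0.11. Deviations within groups this small are tied to each other, so these values cannot tell whether the numbers pair the libraries. The cause of these shifts was not tested.

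Of 899 pairs of gene and setting, 32 reversed, in 13 genes with small changes. Settings that changed only the filter, the model or the test could not reverse a sign. With quantile normalization the log2 fold changes were -0.11 for Rpl5, -0.15 for Rplp0, -0.0024 for Rps4x and -0.042 for Tpt1. Without the mitochondrially encoded genes they were -0.019 for Rpl36, -0.030 for Rpl5 and -0.068 for Rplp0. Without mmu-mir-689-2 as well they were -0.071 for Rpl36, -0.082 for Rpl5, -0.12 for Rplp0, -0.033 for Rps4x, -0.019 for Rps6 and -0.050 for Pabpc1. Median-ratio scaling gave -0.023 for Rplp0. Without CM-RevDKO replicates 1 and 2 they were 0.11 for Rpl29, -0.017 for Rpl5, 0.11 for Rpl7, -0.018 for Rplp0, -0.058 for Rps19bp1 and -0.018 for Rps6. Without control replicate 2 and CM-RevDKO replicate 1 they were 0.036 for Rpl35a and -0.064 for Rplp0. Leaving out 1 library gave -0.12 to 0.14 for Rpl26, -0.13 to 0.055 for Rpl35a, -0.12 to 0.034 for Rpl7, -0.10 to 0.16 for Rplp0, -0.20 to 0.13 for Myc and -0.044 to 0.15 for Pabpc1.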
